A study of Mus musculus with 90 samples.

Results

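Of the 1515 differentially methylated regions (DMRs) kept after filtering in the study's DMR table, 345 overlapped a peak of trimethylated lysine 9 of histone H3 (H3K9me3) by at least 1 bp and no peak of Trim28 or Uhrf1. These H3K9me3-only DMRs were chosen by the pooled peak lists of TKOL embryonic stem cells (ESCs), so peaks in TKOL describe how the regions were selected and were not tested. The other DMRs fell into 657 with all 3 marks, 325 with H3K9me3 and Trim28, 13 with H3K9me3 and Uhrf1, 168 with none of the 3, and 7 with Trim28 or Uhrf1 but no H3K9me3. TKOL is a clonal mouse ESC line of strain J1 that lacks catalytically active Dnmt3a and Dnmt3b and carries an shRNA against Dnmt1. DKO0 was derived from TKOL by Cre excision of the shRNA, which restores Dnmt1 while Dnmt3a and Dnmt3b stay inactive, and DMRs were called where DNA methylation in DKO0 at passage 15 exceeded that in TKOL. The third line was wild-type (WT) V65, an ESC line of another strain with all DNA methyltransferases, so line, strain and genotype cannot be told apart in comparisons with it. H3K9me3 and Trim28 were profiled by ChIP-seq and Uhrf1 by ChIPmentation with a FLAG antibody, in homozygous clones of each line that carried a FLAG tag on the endogenous Uhrf1. All lines were kept on mouse embryonic fibroblast feeders, and each line and mark had 2 replicates. No label says whether replicates were separate cultures, so p-values measure the spread between these lists only, which may be technical.

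H3K9me3 marks heterochromatin and, in ESCs, covers many endogenous retroviruses. Trim28 (also KAP1) is a scaffold that KRAB zinc finger proteins bring to retrotransposons, where it recruits the enzymes that deposit H3K9me3. Uhrf1 binds H3K9me3 and hemimethylated DNA and brings Dnmt1, the maintenance methyltransferase, to chromatin. A DMR with H3K9me3 but without a Trim28 or Uhrf1 peak therefore carries the histone mark without called binding of either of these proteins. The data give peaks as intervals with a fold enrichment over background, and the number of reads behind each list is unknown, so a missing peak is not a measured absence.

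To show what kind of sequence gained methylation, the 200-base stretch with most CpGs outside annotated exons is given for selected DMRs. The first 3 are the H3K9me3-only DMRs that rank highest by the number listed in the DMR table. For comparison, 2 DMRs with all 3 marks follow, the highest left after the exclusions for printed windows given under data processing. Their numbers are 0.250 and 0.234, and the highest among all 657 DMRs with all 3 marks is 0.256. The sequences are from mm9, plus strand, with CpGs in capitals.
DMR_1320, chr19:22008751-22008950: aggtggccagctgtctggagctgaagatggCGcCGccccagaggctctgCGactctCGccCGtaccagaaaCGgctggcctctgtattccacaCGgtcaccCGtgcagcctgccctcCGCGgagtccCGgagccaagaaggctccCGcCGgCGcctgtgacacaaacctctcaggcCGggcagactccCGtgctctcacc
DMR_1780, chr4:42414285-42414484: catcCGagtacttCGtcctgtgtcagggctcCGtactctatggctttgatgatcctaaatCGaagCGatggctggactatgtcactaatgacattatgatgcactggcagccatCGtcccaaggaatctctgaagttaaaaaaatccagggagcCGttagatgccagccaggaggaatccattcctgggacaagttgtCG
DMR_1772, chr4:41964071-41964270: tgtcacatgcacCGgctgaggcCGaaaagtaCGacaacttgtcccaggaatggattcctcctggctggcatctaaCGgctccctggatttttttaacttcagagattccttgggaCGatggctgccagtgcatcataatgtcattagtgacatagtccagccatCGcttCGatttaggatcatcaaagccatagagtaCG
DMR_1801, chr4:60420953-60421152: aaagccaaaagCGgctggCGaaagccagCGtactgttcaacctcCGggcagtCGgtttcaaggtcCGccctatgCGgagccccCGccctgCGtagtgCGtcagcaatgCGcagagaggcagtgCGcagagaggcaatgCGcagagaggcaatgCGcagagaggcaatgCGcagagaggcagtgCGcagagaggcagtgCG
DMR_177, chr1:168698702-168698901: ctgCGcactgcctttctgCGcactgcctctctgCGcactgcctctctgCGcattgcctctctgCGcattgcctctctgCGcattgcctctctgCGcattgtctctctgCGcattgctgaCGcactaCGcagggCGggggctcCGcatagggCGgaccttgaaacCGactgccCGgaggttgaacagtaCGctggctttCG

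The stretches of the 3 H3K9me3-only DMRs held 16, 8 and 8 CpGs, and those of both DMRs with all 3 marks held 17. The stretches of DMR_1801 and DMR_177 are copies of one another on opposite strands, identical at 98.9% of 182 aligned bases, and matched the IAPEz amplicon of the study's hairpin-bisulfite assay over 155 and 159 bases at 94.2% and 94.3% identity. IAPEz is the internal part of an intracisternal A particle (IAP), an active mouse endogenous retrovirus. The stretch of DMR_1320 aligned to none of the other 4 and to neither IAP amplicon. DMR_1780 and DMR_1772 are copies of each other on opposite strands that were identical over 6415 bases, and both were identical to another member, DMR_1781, over 5776 and 5861 bases.

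The H3K9me3-only DMRs were made of single-copy sequence to a much larger extent than DMRs with all 3 marks. Each DMR was cut into all its words of 31 bases, and the share of words that occur once in the mm9 genome was counted. The median share was 58.4% over the 345 H3K9me3-only DMRs (quartiles 30.7 to 85.4%), 2.54% over the 657 DMRs with all 3 marks (0.487 to 18.4%), 8.47% over those with H3K9me3 and Trim28, and 81.4% over those with none of the 3. At least 90% of words were found once in 72 H3K9me3-only DMRs (20.9%) and in 0 of the DMRs with all 3 marks, while under 10% were found once in 43 (12.5%) against 434 (66.1%). Words shared with at least 10 DMRs made up a median of 0.115% of an H3K9me3-only DMR and 88.0% of a DMR with all 3 marks. The difference was also seen among DMRs of at most 2 kb, where the medians were 58.1 and 1.03%.

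**Figure D1:**
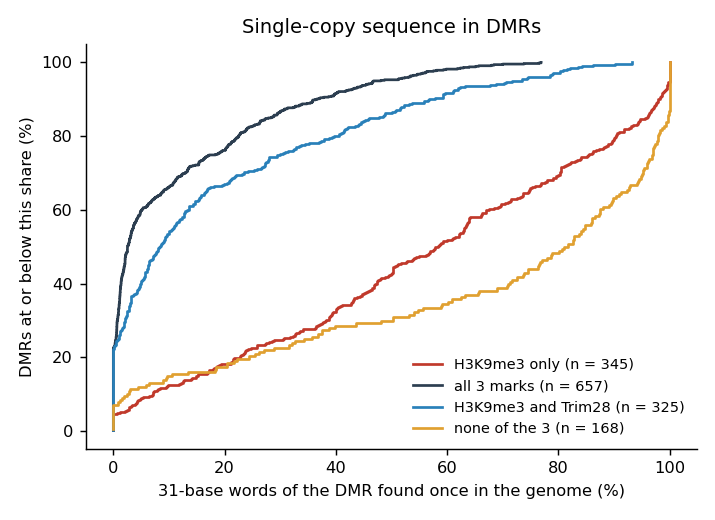
Cumulative share of DMRs (y axis, %) against the share of their 31-base words found once in the genome (x axis, %), for the 4 largest classes of DMRs by TKOL marks. The line of the 345 H3K9me3-only DMRs runs far to the right of that of the 657 DMRs with all 3 marks, with medians of 58.4 and 2.54%.

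CpGs were also sparser in these regions than in DMRs with all 3 marks. H3K9me3-only DMRs held a median of 12.8 CpGs per kb (quartiles 10 to 16.9) and 18 CpGs in all, against 21.2 per kb (18.6 to 28) and 80 CpGs in DMRs with all 3 marks. DMRs with none of the marks were closer to the members, at 11 CpGs per kb and 14 CpGs. GC content differed little, with medians of 44.2 and 45.6%. The reference sequence of the study's IAPEz amplicon was found in 1 of the 345 H3K9me3-only DMRs and in 183 of the 657 with all 3 marks (27.9%), and that of the IAP long terminal repeat (LTR) amplicon in 23 (6.67%) and 248 (37.7%). Of the 168 DMRs with none of the marks, 7 matched the LTR amplicon (4.17%). A match was counted where at least 80% of the amplicon aligned at 80% identity. Identity in the 23 LTR matches ranged from 81.7 to 95.6%, with a median of 92.1%. The highest table value among them was that of DMR_1113, a 2750-bp intergenic DMR on chromosome 17, and its matching stretch is shown for that reason, plus strand.
DMR_1113, chr17:20052504-20052609: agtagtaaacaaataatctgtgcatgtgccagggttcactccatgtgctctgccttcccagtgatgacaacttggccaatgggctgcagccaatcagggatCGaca

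This stretch held 1 CpG, where the amplicon held 6, and was 85.0% identical to it over 113 aligned positions. The median table value of the 23 DMRs with an LTR match was 0.163, against 0.167 over all H3K9me3-only DMRs.

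H3K9me3-only DMRs were short. Their median length was 1250 bp (quartiles 1000 to 2000, longest 9500), against 3250 bp (1500 to 5250, longest 21750) for DMRs with all 3 marks and 2000 bp for all 1515. The 168 DMRs with none of the 3 marks had the same median of 1250 bp. At 144 of the H3K9me3-only DMRs (41.7%) the length was 1000 bp, the shortest in the table. The same held for 69 (10.5%) of the DMRs with all 3 marks and 67 (39.9%) of those with none. Lengths over 5000 bp were found at 8 H3K9me3-only DMRs (2.32%) and at 177 DMRs with all 3 marks (26.9%). The rule counts any overlap, and the part of DMR length in it was not tested. The difference turned round when peaks of a mark had to cover 50% of a DMR, where only 18 DMRs kept all 3 marks and the H3K9me3-only set was 750 bp longer in the median.

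The DMR table pairs each DMR with a number that its header does not name. All are above 0.15, and the methods apply 1 cutoff both to the gain from TKOL to DKO0 and to the level in DKO0, so the number may be either. Its median was 0.167 (quartiles 0.158 to 0.179) at H3K9me3-only DMRs and 0.173 (0.164 to 0.185) at DMRs with all 3 marks, with 0.170 over all. Within bands of length the values lay close together. Among DMRs of 1000 bp the medians were 0.162 and 0.161, from there to 2000 bp they were 0.168 and 0.169, and above 2000 bp, where the median lengths were 3000 and 5000 bp, they were 0.176 and 0.177. A value of at least 0.2 was listed for 34 H3K9me3-only DMRs (9.86%) and 62 DMRs with all 3 marks (9.44%). The order of the overall medians turned round with the length under the 50% overlap.

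**Figure D2:**
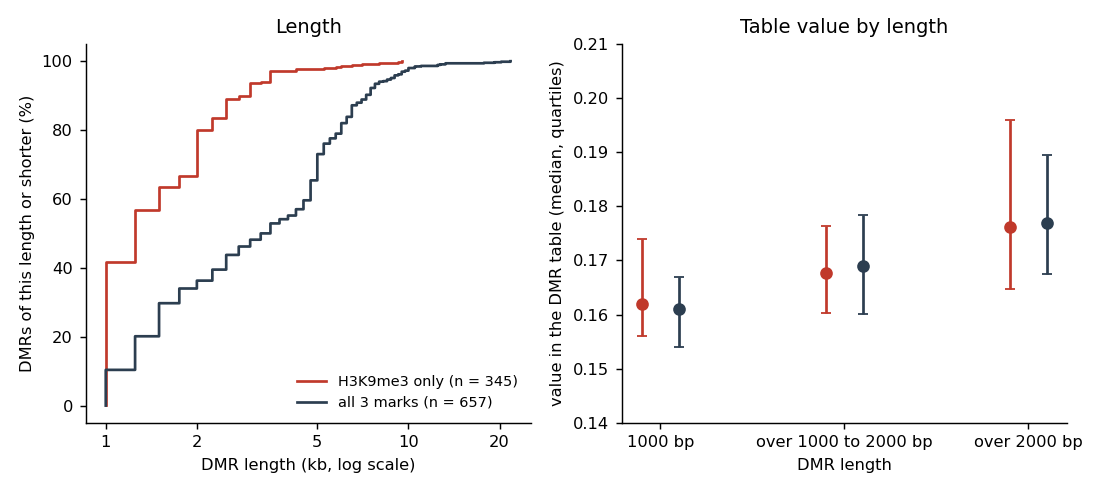
Left, cumulative share of DMRs (%) by length (kb, log scale); right, median and quartiles of the value in the DMR table within 3 length bands, with an axis that starts above 0. H3K9me3-only DMRs (red) are shorter than DMRs with all 3 marks (dark), while the medians within a band nearly coincide, as with 0.162 and 0.161 at 1000 bp.

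The highest value of all H3K9me3-only DMRs was 0.294, at DMR_1320 (chr19:22008751-22009750, mm9), an intergenic 1000-bp DMR 155919 bp from the start of Tmem2, which encodes a hyaluronidase. Of its 31-base words 79.0% occur once in the genome. H3K9me3 peaks covered 15.9% of it in pooled TKOL (277 bp wide, fold 4.06) and in pooled DKO0 (284 bp, fold 5.05), and it had a peak in both DKO0 replicates and in TKOL replicate 1. No V65 list had any peak there. A Trim28 peak of 393 bp (fold 3.59) was called in pooled DKO0, in neither replicate alone, and the nearest TKOL Trim28 peak lay 2773 bp away.

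The next 3 values, 0.262, 0.261 and 0.246, belonged to DMR_1780 (chr4:42413501-42420500), DMR_1772 (chr4:41958001-41964500) and DMR_1781 (chr4:42598001-42604000), the copies described above. None of their 31-base words occurs once in the genome, so short reads within the identical stretches cannot be told apart, and the values of these 3 may not be independent. They overlap exons of the predicted genes Gm7819, Gm3893 and Gm2163 in a stretch of chromosome 4 that also holds Ccl21c, a chemokine gene. Another member there, DMR_1776 (value 0.204, exon of Gm10930), aligned to them over 1897 bases at 99.3% identity. H3K9me3 covered 10 to 15.0% of these 4 DMRs in pooled TKOL, with folds from 2.81 to 3.47. DMR_1113 (0.243) and DMR_1905 (0.238, chr5:8021751-8022750) completed the 6 highest values. DMR_1905 lay within 50 kb of Adam22, Sri, a calcium-binding protein gene, and Steap4, a metalloreductase gene, and was wholly covered by a DKO0 peak of 5480 bp.

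H3K9me3 peaks at these DMRs were narrower and lower than at DMRs with all 3 marks. In pooled TKOL, the widest peak at an H3K9me3-only DMR had a median width of 1164 bp (quartiles 515 to 2574), a fold of 3.53 and covered 52.7% of the DMR. At DMRs with all 3 marks the widest peak had a median of 7169 bp (5223 to 8357), a fold of 10.7 and covered 100%. Peaks over 5000 bp were found at 35 H3K9me3-only DMRs (10.1%) and at 521 DMRs with all 3 marks (79.3%), and 85 (24.6%) against 3 (0.457%) had no peak as wide as 500 bp. Over all peaks of the pooled TKOL list, counted per peak and not per DMR, the median width was 296 bp and the median fold 2.90. These values come from the list that chose the DMRs and are a description.

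In DKO0, after Dnmt1 had been restored, the pooled H3K9me3 list had a peak at 327 of the 345 (94.8%, 95% Wilson interval 91.9 to 96.7), compared with 89.7% of all 1515 DMRs and all 657 DMRs with all 3 marks. The median width at these 327 was 2245 bp in DKO0 and 1240 bp in TKOL, with 255 wider and 72 narrower in DKO0 and a median ratio of 1.38. For DMRs with all 3 marks the ratio was 1.08. The pooled DKO0 list was wider in general, with a median peak of 377 bp over 85.3 Mb against 296 bp over 74.96 Mb in TKOL, and the part of this in the ratio was not tested. Fold enrichment differed little, with a median of 3.55 in DKO0.

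**Figure D3:**
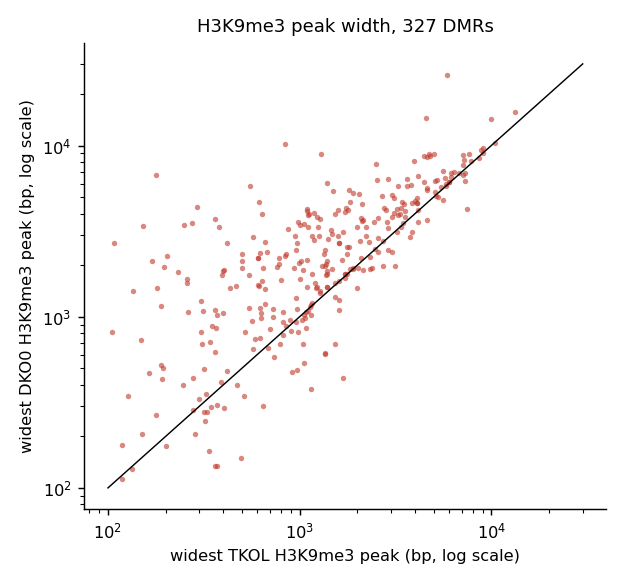
Width of the widest H3K9me3 peak in pooled TKOL (x axis, bp) and pooled DKO0 (y axis, bp), both on log scales, at the 327 H3K9me3-only DMRs with a peak in both; the line marks equal widths. Most points, 255 of 327, lie above the line.

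The single-replicate lists held far fewer of these peaks, and the replicates disagreed. DKO0 replicate 1 had an H3K9me3 peak at 213 H3K9me3-only DMRs (61.7%), against 76.2% of all DMRs, whereas replicate 2 had one at 37 (10.7%), against 55.9%. The same split was seen in TKOL, with 165 (47.8%) in replicate 1 and 23 (6.67%) in replicate 2. Replicate 1 had the longer list in both lines, with 63579 against 37315 peaks in DKO0 and 55126 against 32702 in TKOL. At DMRs with all 3 marks the replicates lay closer together, at 97.4 and 92.7% in DKO0. A TKOL replicate peak touched 172 of the 345 DMRs themselves and, at 236, any part of the pooled peak, which left 109 whose pooled peak met no replicate peak. Of the DMRs with all 3 marks, 2 were in that position.

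V65 had an H3K9me3 peak at 38 of the 345 in replicate 1 (11.01%, against 54.8% of all DMRs) and at 25 in replicate 2 (7.25%, against 53.3%). The mean share was 36.2 ± 36.1% in DKO0 and 9.13 ± 2.66% in V65 (SD, n = 2 each). The difference of 27.1 percentage points was smaller than the spread of the DKO0 replicates (exact two-sided permutation test, p = 0.667, adjusted p = 1), in a design that cannot go below p = 0.333. Without DKO0 replicate 1 it was 1.59 points, and without DKO0 replicate 2 it was 52.6. With all 4 lists cut to equal numbers of peaks, the difference was 9.57 points. In all, 8 members (2.32%) had an H3K9me3 peak in all 4 DKO0 and V65 replicate lists, against 86.6% of DMRs with all 3 marks and 46.7% of all DMRs, and 119 (34.5%) had one in none of the 4, against 1.22 and 20.7%.

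Trim28 peaks stayed rare in the lines that the rule did not use. Pooled DKO0 had a Trim28 peak at 20 of the 345 (5.80%, interval 3.78 to 8.78), against 57.8% of all DMRs and 97.4% of those with all 3 marks. Both DKO0 replicates had one at 6 (1.74%), against 45.1 and 43.5% of all DMRs, and 1 member was shared. V65 had 2 (0.580%) and 7 (2.03%), against 45.4 and 36.3%. The means were 1.74 ± 0% in DKO0 and 1.304 ± 1.02% in V65, which did not differ beyond the spread (exact two-sided permutation test, p = 1, adjusted p = 1), and the sign of the difference of 0.435 points turned to -0.290 without V65 replicate 1. The Trim28 peaks found in pooled DKO0 were small, with a median width of 139 bp and fold of 3.497, against 2052 bp and 10.2 at DMRs with all 3 marks. DMRs with none of the 3 marks also had few Trim28 peaks, at 1.79 and 0.595% in the DKO0 replicates and 1.19 and 0.595% in V65.

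Uhrf1 peaks were almost missing in DKO0 and more frequent in V65. Pooled DKO0 had a Uhrf1 peak at 5 of the 345 (1.45%, interval 0.621 to 3.35), against 39.8% of all DMRs and 80.8% of those with all 3 marks, and the replicates had 1 (0.290%) and 4 (1.16%), against 25.9 and 17.9%. V65 had a Uhrf1 peak at 51 (14.8%, against 52.4% of all DMRs) and 66 (19.13%, against 60.7%), of which 27 were the same. Each V65 value lay above both DKO0 values. The means of 0.725 ± 0.615% and 16.96 ± 3.07% (SD, n = 2) differed by -16.2 points, with the smallest p that 2 lists against 2 can give (exact two-sided permutation test, p = 0.333, adjusted p = 1). DMRs with all 3 marks moved the same way, from 47.3 ± 11.4% in DKO0 to 92.0 ± 4.41% in V65. Those with none of the 3 marks had a Uhrf1 peak at 0% in both DKO0 replicates and at 5.36 and 10.1% in V65. The V65 Uhrf1 lists were also longer, with 30134 and 49156 peaks against 11440 and 11488, and with equal numbers of peaks per list the difference at H3K9me3-only DMRs was -4.64 points. Of the 90 members with Uhrf1 in either V65 list, 13 also had an H3K9me3 peak in V65, a share close to the 53 of all 345 members that had one (15.4%). Among all DMRs, 783 of the 979 with Uhrf1 in V65 had one, where the share with or without Uhrf1 was 897 of 1515 (59.2%).

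**Figure D4:**
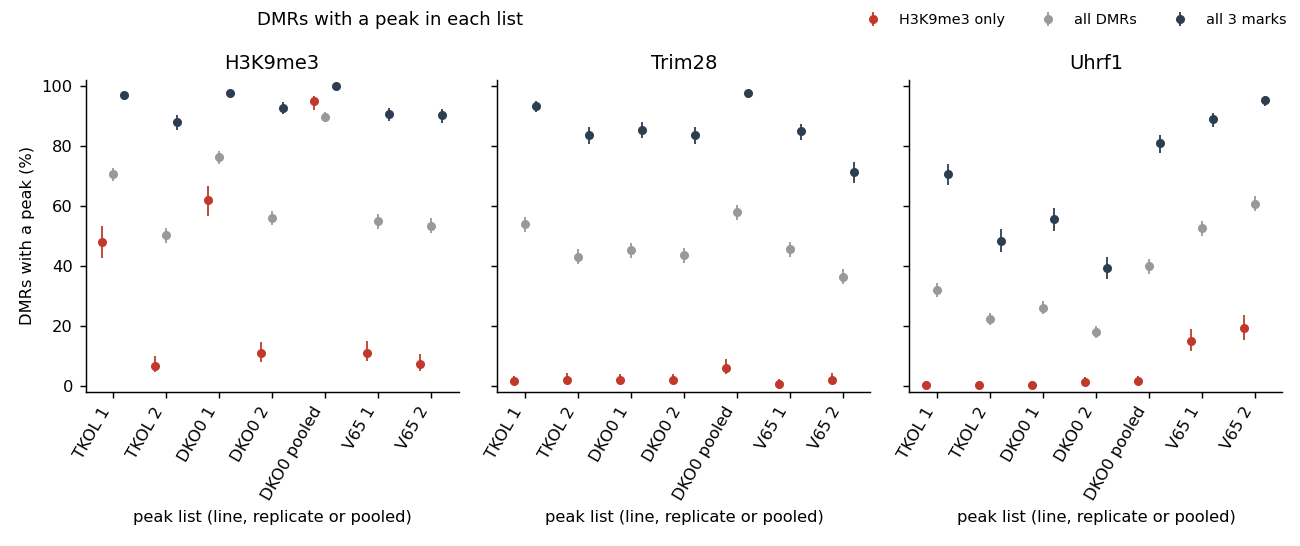
Share of DMRs with a peak (y axis, %) in each list (x axis) for H3K9me3, Trim28 and Uhrf1; points show H3K9me3-only DMRs (red), all 1515 DMRs (grey) and DMRs with all 3 marks (dark), and bars are 95% Wilson intervals that cover the count of DMRs only. H3K9me3-only DMRs lie lowest of the 3 sets in every list shown except pooled DKO0 H3K9me3, where they reach 94.8%. The DMRs with none of the marks are not drawn.

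Within each of the 4 DKO0 and V65 replicate lists, fewer H3K9me3-only DMRs than DMRs with all 3 marks carried a peak, for every mark. For H3K9me3, the mean share over the 4 lists was 22.7% against 92.7%, and the differences ran from -82.9 to -35.7 points. For Trim28, the means were 1.52 and 81.2%, with differences from -84.2 to -69.1. For Uhrf1, they were 8.84 and 69.7%, with differences from -76.0 to -38.1. All 4 lists gave the same direction for each mark, and the exact two-sided sign-flip permutation test over lists gave its smallest possible p of 0.125 for each (adjusted p = 0.125). The sets were chosen by peaks in TKOL, from which DKO0 was derived. The 4 lists are replicates nested in DKO0 and V65 and not independent samples, so these p-values give no independent support for the difference. Among DMRs of at most 2 kb the mean differences were -65.0, -69.1 and -52.8 points.

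Taken over the pooled DKO0 lists, 303 of the 345 (87.8%) had H3K9me3 and neither other mark again, against 30.6% of all DMRs. A further 19 had H3K9me3 with Trim28, 5 had H3K9me3 with Uhrf1, 1 (DMR_525) had Trim28 alone, and 17 had no mark. None had all 3 marks, against 38.0% of all DMRs, and 0 of 345 allows a share of up to 0.870%, taking 3 counts as the limit of a count of 0. The 18 members without an H3K9me3 peak in pooled DKO0 had narrow TKOL peaks, with a median of 275 bp and a fold of 2.79. The 5 with the highest table values were DMR_1516, DMR_2374, DMR_143, DMR_2284 and DMR_1776, at 0.226, 0.215, 0.211, 0.206 and 0.204. Of these, DMR_1516 and DMR_2284 had a peak in DKO0 replicate 1 and DMR_1776 had one in replicate 2, in spite of none in the pooled list. DMR_1516 (chr2:154843251-154844500) overlaps an exon of the predicted gene Gm14226 within a, the agouti gene, whose product sets coat pigment. DMR_143 lies in an intron of Nckap5, and DMR_2284 lies near the predicted gene Gm8979 and holds an IAP LTR match.

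Around the H3K9me3-only DMRs the mark fell off within a few kb. In pooled TKOL, 55.4% of DMR centres lay in an H3K9me3 peak, and 15.9% of positions 5 kb and 6.38% of positions 10 kb from the centre did. DMRs with all 3 marks gave 96.8, 28.5 and 7.31%. In pooled DKO0 the members gave 65.2, 18.99 and 8.55%. Trim28 was called at 3.33% of positions 5 kb away in both lines, above the 0 and 0.870% at the centre, which the rule sets to 0 in TKOL.

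**Figure D5:**
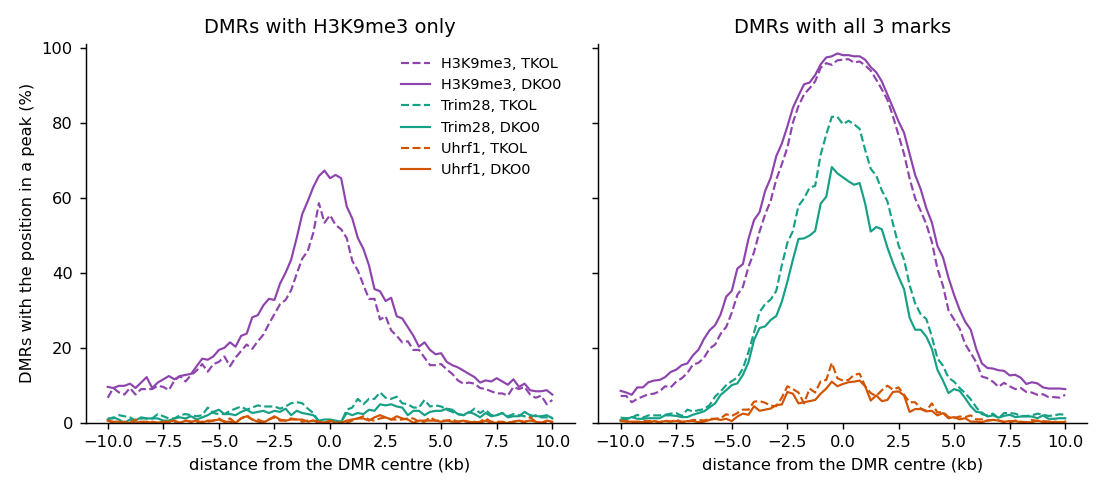
Share of DMRs (y axis, %) whose position at a given distance from the DMR centre (x axis, kb) lay in a peak of the pooled TKOL (dashed) or DKO0 (solid) lists, for H3K9me3, Trim28 and Uhrf1. At H3K9me3-only DMRs (left) H3K9me3 peaks at the centre, with 55.4% in TKOL and 65.2% in DKO0, and the other marks stay low, with Trim28 dipping at the centre, whereas Trim28 follows H3K9me3 at DMRs with all 3 marks (right).

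Many members lay close to a peak they did not touch. A Trim28 or Uhrf1 peak of pooled TKOL lay within 1 kb of 95 of them (27.5%), against 16 of the 168 DMRs with none of the 3 marks (9.52%). The share of all DMRs was 73.5%, which includes those that overlap such a peak. The median distance of members was 8766 bp to the nearest Trim28 peak and 21263 bp to the nearest Uhrf1 peak. For DMRs with none of the marks the distances were 23625 and 26594 bp. The members just inside the rule were DMR_2129, DMR_1069 and DMR_422, whose nearest Trim28 peaks were 5, 23 and 26 bp away. Among DMRs with all 3 marks, the smallest overlaps with a peak were 2, 4 and 7 bp, at DMR_565, DMR_433 and DMR_2210. Such a DMR would have to lose both Trim28 and Uhrf1 to become a member. The smallest H3K9me3 overlaps of members were 4, 5 and 35 bp, at DMR_339, DMR_1065 and DMR_1591. The 95 members with a near peak had wider TKOL H3K9me3 peaks than the other 250, with medians of 2149 and 1001 bp, and the same median table value of 0.167.

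The widest TKOL H3K9me3 peaks belonged to DMR_254, in an intron of Cep57l1 near the sestrin gene Sesn1 (13353 bp), DMR_2512, near the zinc finger gene Zfp280d (10465 bp), and DMR_1381 (9970 bp). DMR_1381 lies beside the Surf cluster, with Surf1, Surf2, Surf4, Surf6, Med22, a Mediator subunit, and Rpl7a, a ribosomal protein, and near Abo, a glycosyltransferase, and Gm711. No TKOL replicate list had a peak in any of these 3 DMRs, and the DKO0 pooled peaks were 15733, 10411 and 14330 bp wide. DMR_2512 is 1 of the 5 members with Uhrf1 in pooled DKO0, and it had Uhrf1 in both V65 lists. The highest folds, 12.8, 11.4 and 11.01, were at DMR_844 near Siah3, DMR_2299 between Cog7, a Golgi complex subunit, and Scnn1b, an epithelial sodium channel subunit, and DMR_478 on chromosome 12. Their peaks were 7119, 6047 and 4619 bp wide, and Trim28 peaks lay 513, 429 and 147 bp from these DMRs. DMR_478 was the member with the IAPEz match and had the highest CpG density, 45 per kb. Pooled DKO0 had a Trim28 peak of 170 bp (fold 3.68) in DMR_478. In pooled DKO0 the 3 had H3K9me3 peaks of 7717, 6129 and 5685 bp, with folds of 10.2, 8.44 and 8.24. None of the 3 had an H3K9me3 peak in a DKO0 or V65 replicate list.

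The longest members were DMR_543 (9500 bp), DMR_541 (9250 bp), DMR_515 (8000 bp) and DMR_1780. DMR_543, near the ubiquitin ligase gene G2e3 and Gm9808, had H3K9me3 in all 4 DKO0 and V65 replicate lists and Uhrf1 in both V65 lists. Its TKOL peak was 1082 bp wide, with a fold of 5.51. DMR_541, in an intron of Prkd1, which encodes protein kinase D1, had H3K9me3 in DKO0 replicate 1 and Uhrf1 in both V65 lists. DMR_515 lies near 9030624G23Rik, and its pooled peaks covered 29.1% of it in TKOL and 22.2% in DKO0.

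H3K9me3-only DMRs were mostly intergenic, at a share close to that of all DMRs. By the GENCODE annotation of the same build, 69 of the 345 (20%) lay in a protein-coding gene, 53 of them in introns only and 16 with an exon, 12 lay in genes of other types and 264 (76.5%) in none. DMRs with all 3 marks gave 17.4% in a protein-coding gene and 79.6% in none, and all DMRs gave 18.7 and 78.2%. The median distance to the nearest protein-coding start site was 70779 bp for members and 82847 bp for DMRs with all 3 marks, and 184 members (53.3%) had a protein-coding gene within 50 kb, as did 52.7% of DMRs with all 3 marks. Exons were met by 4.64% of members, 1.52% of DMRs with all 3 marks, 7.14% of DMRs with none of the marks and 3.17% of all DMRs.

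A total of 19 members overlapped an exon of a protein-coding gene or lay within 2 kb upstream of its start, and 12 with the highest values are named here. They include the 4 members of chromosome 4 and DMR_1516 above. DMR_440 overlaps the predicted gene Gm884 near Lyzl6, DMR_867 an exon of Mycbp2, a large ubiquitin ligase, DMR_1099 the predicted gene Gm8603 within Tcte2 near Smok4a, and DMR_1273 an exon of Sh3tc2, a gene of myelinating Schwann cells. DMR_867 (value 0.185) consists wholly of words found once in the genome, and its H3K9me3 peak was called in both pooled lists, 4645 bp wide in TKOL and 8613 bp in DKO0, but in no replicate. DMR_1510 lies upstream of Napb, a vesicle fusion factor, near Gzf1, Cstl1, Cst11 and 8030411F24Rik, and DMR_577 upstream of Adam4 and in introns of Cox16 and Synj2bp, near Gm4787.

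DMR_2322 (chr7:149854001-149856000, mm9) lies 1280 bp upstream of the start of Igf2, an imprinted growth factor gene, overlaps the noncoding Igf2as and lies within 50 kb of the insulin gene Ins2. Its value was 0.176, 97.2% of its words occur once in the genome, and it held 38 CpGs. H3K9me3 peaks covered 40.2% of it in pooled TKOL (1203 bp, fold 3.85) and 66.8% in pooled DKO0 (1581 bp, fold 4.29), and replicate 1 of both lines had a peak. V65 had no H3K9me3 peak there and a Uhrf1 peak of 469 bp in replicate 2. A TKOL Trim28 peak lay 70 bp from its edge. It was the only member within 50 kb of the 28 imprinted genes looked up, and 2 of all 1515 DMRs lay so near one, the other being a DMR with H3K9me3 and Trim28.

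Other gene groups were rare near the members and also near all DMRs. A gene of the zinc finger (Zfp) family lay within 50 kb of 8 members (2.32%, against 1.22% of DMRs with all 3 marks and 1.32% of all), an olfactory receptor (Olfr) gene within 50 kb of 6 (1.74%, against 2.44 and 2.57%), and a vomeronasal receptor gene of the Vmn2r family of 3 (0.870%, against 0.913 and 1.06%) and of the Vmn1r family of 1 (0.290%, against 0.609 and 0.594%). No protocadherin (Pcdh) gene lay near a member, and one lay near 3 of all DMRs (0.198%). Genes active at the 2-cell stage lay near 3 members (0.870%), namely Zfp352, Zscan4d and Tdpoz4, and near 4 DMRs in all (0.264%). Germline genes lay near 0 members and 1 of all DMRs (0.0660%), which had all 3 marks.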

How the data were processed

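H3K9me3, Trim28 and Uhrf1 were profiled in TKOL, DKO0 and V65 ESCs. Per the submitters' notes, the authors used BWA on mm9, GATK for duplicate removal and MACS2 in broad mode. They deposited 24 lists, 18 of single replicates and 6 of TKOL and DKO0 replicates pooled on read level and called against input. Each deposited peak has a fold enrichment, a ratio to background, and a -log10 p-value and q-value. DMRs were read from the study's supplementary table of filtered DMRs. File names carry p3 for DKO0 Uhrf1 and p5 for H3K9me3 and Trim28, whereas DMRs were called at passage 15. Reads behind the lists are unknown, so Wilson intervals cover the count of DMRs only. Hairpin, WGBS, MeDIP-seq and Nanopore data were not analysed here.

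Overlaps (at least 1 bp) were checked with bedtools 2.31.1, and 0 of 24 lists differed. Word counts, overlaps and tests were tested on simulated data. Shares of DMRs per list were compared between DKO0 and V65 and, within lists, between sets, by exact permutation tests with Benjamini-Hochberg adjustment over 3 marks. Amplicons were aligned with blastn 2.17.0. Genes are from GENCODE (22380 protein-coding genes, mm9). Python 3.11.15, numpy 2.4.6 and scipy 1.17.1 were used. Named DMRs were the 6 highest by table value, the 4 longest, 3 each with the widest and highest TKOL H3K9me3 peaks, up to 12 at exons or within 2 kb upstream of a start, and up to 5 each with all 3 or no H3K9me3 marks in pooled DKO0. Also named were the 3 members nearest to a Trim28 or Uhrf1 peak and, by smallest overlap, 3 DMRs with all 3 marks and 3 members. Named genes lie within 50 kb of them, except Tmem2, given as the nearest coding start to the highest DMR. Printed windows were kept outside exons, and DMRs on chromosome 18 were left out of them. Members and lists were chosen with earlier results of these data known. Alternatives were a 50% overlap, a -log10 q of at least 5, equal numbers of peaks, DMRs of at most 2 kb, a 1 kb flank, a replicate block and each replicate left out.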

Additional observations from a re-analysis of the deposited data

How the results depend on the processing

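The number of H3K9me3-only DMRs was 345 as reported, 222 with a -log10 q of at least 5 (79 of them among the 345, with 98 DMRs left with all 3 marks), and between 139 and 272 by a single TKOL replicate list. Of the 139 found by replicate 2 alone 21 were among the 345, and of the 272 by replicate 1 alone 159 were. An overlap of 50% of the DMR gave 450, of which 179 were shared, and left 18 DMRs with all 3 marks. Under it the difference of medians from DMRs with all 3 marks turned from -2000 to 750 bp for length and from -0.00648 to 0.00785 for the table value, and for TKOL peak width it moved from -6005 to -2478 bp. By single TKOL lists it lay between -3250 and -3000 bp for length, -0.00551 and -0.00384 for the table value and -5544 and -2904 bp for width. In DMRs of at most 2 kb it was -0.0015 for the table value and -5068 bp for width.

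The pooled DKO0 shares of 94.8% (H3K9me3), 5.80% (Trim28) and 1.45% (Uhrf1) became 66.7, 0 and 0% with an overlap of 50% of the DMR, 47.0, 0.290 and 0% with the higher q, and 8.70, 0.290 and 0% when both replicates had to have a peak. By single DKO0 lists they lay between 10.7 and 61.7%, at 1.74%, and between 0.290 and 1.16%. The V65 mean shares of 9.13, 1.304 and 16.96% became 0, 0 and 0.580% with the 50% overlap and 0.290, 0 and 0.290% with the higher q.

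Leaving out 1 list at a time, DKO0 minus V65 lay between 1.59 and 52.6 points for H3K9me3, -0.290 and 1.16 for Trim28, and -18.4 and -14.1 for Uhrf1. The H3K9me3 difference of 27.1 points was 5.22 with the 50% overlap and 9.57 with equal numbers of peaks. The differences between H3K9me3-only DMRs and those with all 3 marks kept their sign under each alternative run, though with the 50% overlap they shrank to -16.7, -4.87 and -3.40 points. Genes of all types moved the median distance to a start site from 70779 to 34671 bp, and words of 50 bases moved the difference in single-copy share from 55.9 to 72.7 points. The cause of these shifts was not tested.

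For the pairing of replicate numbers, deviations of same-numbered DKO0 and V65 lists, the lines compared, had correlations of 0.00613, 0.0417 and 0.000274 over DMRs for H3K9me3, Trim28 and Uhrf1. With TKOL, not part of that comparison, they were 0.448, 0.0886 and 0.0874 for DKO0 and 0.0580, 0.137 and 0.00409 for V65. No label says that a number marks a shared batch. With the replicate block the differences of 27.1, 0.435 and -16.2 points had exact sign-flip p of 0.5, 1 and 0.5, where 2 pairs cannot go below 0.5. The number of peaks, not reads, is the only measure of depth here, and it limits what a missing peak can mean.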

Other observations

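H3K9me3-only DMRs were present on all 19 autosomes, from 8 on chromosomes 15 and 19 to 32 on chromosome 12, and no filtered DMR lay on chromosome X or Y. A stretch of 8 Mb on chromosome 12 (18000001 to 26000000, mm9), picked after the positions were seen, held 19 of the 345 (5.51%), 15 DMRs with H3K9me3 and Trim28 (4.62%) and 6 with all 3 marks (0.913%), out of 43 of all 1515 (2.84%). The 19 had a median of 15.2% of words found once in the genome and a median table value of 0.171. All 19 had an H3K9me3 peak in pooled DKO0, as did 42 of all 43 there, and 7 and 3 had one in its replicates. DMR_478, with the highest fold of TKOL H3K9me3 among them, lies there.

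Members that carried Uhrf1 in both V65 lists, 27 in number, held a median of 19.3 CpGs per kb and 6 IAP LTR matches, while the 255 with Uhrf1 in neither held 12 CpGs per kb and 9 matches. Of the 23 members with an LTR match, V65 replicates had Uhrf1 at 9 (39.1%) and 11 (47.8%), against 14.8 and 19.13% of all members. These subsets were formed after the values were seen and were not tested. Members with a peak in both DKO0 H3K9me3 replicates (30), in replicate 1 alone (183) and in neither (125) had the same median table value, 0.167.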
